A study of Bos taurus with 79 samples.

Results

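The genes described here are smooth muscle genes, followed in strips of bovine endometrium to see how far their level is a property of a single strip and how far of a group of animals. They were chosen by name: a probe set counted when the annotation of the array gave it 1 of 6 written symbols and no other. ACTA2, MYH11, CNN1, TAGLN and DES were each measured by 1 probe set, which made 5 of the 24016 probe sets left after the controls of the array were removed. ACTG2, a smooth muscle actin, was the sixth symbol and had no probe set under that name, so no value is given for it.

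Smooth muscle cells shorten when myosin filaments pull on actin filaments. ACTA2 is the smooth muscle alpha actin of the thin filament, MYH11 is the heavy chain of the smooth muscle myosin motor, CNN1 (calponin) and TAGLN (transgelin) bind actin filaments, and DES (desmin) forms the intermediate filaments that tie the contractile apparatus together. In the uterus these proteins are abundant in the myometrium, the muscle wall directly beneath the endometrium. They are also made in the walls of blood vessels, and ACTA2 and TAGLN in some stromal cells, so a strip of endometrium can carry their RNA from several sources.

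Gene expression was measured in 79 samples of endometrium from cross-bred beef heifers, with 1 Affymetrix array for each sample. The heifers were pregnant or cyclic, had a high or a normal progesterone concentration, and were killed on day 5, 7, 13 or 16 of early pregnancy or of the cycle. Estrus had been synchronized in every group, and the high progesterone groups carried a progesterone-releasing intravaginal device from day 3 onwards. The 4 kinds of heifer on each day are written PH (pregnant, high progesterone), PN (pregnant, normal progesterone), CH (cyclic, high progesterone) and CN (cyclic, normal progesterone). There were 5 arrays in 15 of the 16 groups and 4 in CH on day 7. The labels name each array as a biological replicate and give it a number, by which it is called here (day 13 PH 4), and they give no batch. Total RNA was taken from whole strips with Trizol, so the RNA of all cells of a strip was pooled, and the labels do not say how deep a strip was cut.

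All levels are log2 values as deposited, a scale on which a difference of 1 is a 2-fold difference. A level can be compared between arrays for the same gene, but not between genes, since probe sets differ in brightness. Array medians lay between 4.71 and 5.12 and array standard deviations between 2.60 and 2.93. Day 7 CH 3 was at the low end of both (4.71 and 2.60), and day 13 PH 1 was next (4.74 and 2.68). Among markers of endometrium, the epithelial gene EPCAM averaged 12.94 and the stromal gene DCN 14.04 over the arrays, where the median probe set averaged 5.04. Some markers lay below that median: the epithelial keratin gene KRT8 averaged 2.23, the epithelial gene SPINT1 4.74 and the stromal gene POSTN 4.98. As probe sets differ in brightness, these levels do not rank the genes. Day 5 CH 3 stood apart in another gene group, with a mean of 7.53 over 13 leukocyte markers against 4.06 to 4.77 in the other CH arrays of that day, and each of its smooth muscle genes lay inside the range of the other 4.

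A muscle score, the mean log2 level of the 5 genes, summarises each array. An array was said to stand apart where its score exceeded the median of its group by more than 2, and 3 arrays did. Day 13 PH 4 had a score of 13.26, which was 5.21 above its group median, day 7 PH 5 had 12.04, which was 4.04 above, and day 5 PN 4 had 12.37, which was 3.28 above. The next array, day 13 PN 1, lay 1.65 above its group median, and the lowest, day 5 PN 1, lay at -1.24. In every one of the 5 genes these 3 arrays were the highest 3 of the 79, in the order day 13 PH 4, day 5 PN 4, day 7 PH 5. They come from 3 groups, all of pregnant heifers, on 3 days.

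**Figure D1:**
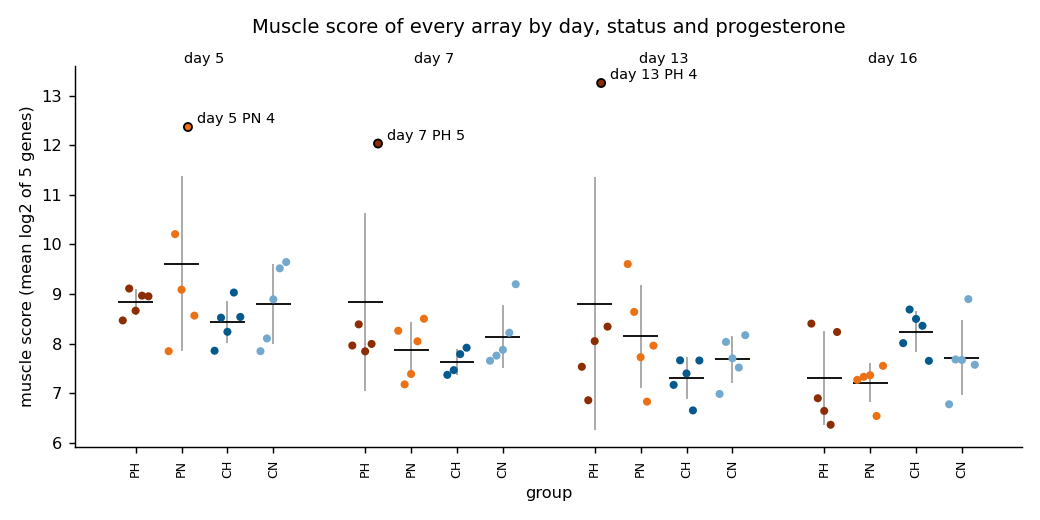
Muscle score (mean log2 level of ACTA2, MYH11, CNN1, TAGLN and DES) of each array, by day and group, with the group mean as a bar and mean ± SD as a grey line. The 3 ringed arrays, at 12.37, 12.04 and 13.26, lie more than 2 above the median of their group.

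In the array of day 13 PH 4 every smooth muscle gene was far above the other 4 arrays of its group. ACTA2 stood at 14.38 there, against 9.25, 8.56, 9.74 and 10.28 in PH arrays 1, 2, 3 and 5. MYH11 stood at 13.98, against 7.09, 6.50, 8.41 and 8.57. DES stood at 12.21, against 6.64, 6.01, 6.86 and 6.87. None of the 3 genes overlapped between this array and the rest of its group, and the gap was 4.88, 6.23 and 5.46 above the median of the others. The 3 arrays that stand apart were chosen by the mean of these same genes, so such gaps follow from the choice. Of all 24016 probe sets, 606 were at least 1 above every other array of the group in day 13 PH 4. CNN1 stood at 12.35 against 5.20 to 7.20, and TAGLN at 13.36, which was 4.67 above the median of the others.

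Day 7 PH 5 showed the same picture in another group. Its ACTA2 level was 13.88, against 10.62, 10.39, 10.29 and 10.38 in PH arrays 1 to 4 of that day. Its MYH11 level was 12.15, against 7.39, 8.37, 8.10 and 7.88. The other 4 arrays lay close together in both genes, and array 5 was 4.16 above their median for MYH11. CNN1, TAGLN and DES were 4.25, 3.67 and 4.40 above the median of the others.

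Day 5 PN 4 lay in a group that was spread more widely. ACTA2 measured 13.94 there, against 10.77, 12.97, 12.07 and 11.33 in PN arrays 1, 2, 3 and 5. MYH11 measured 12.63, against 7.88, 9.21, 8.02 and 8.32. It was the highest of the group in both genes, 2.24 above the median of the others for ACTA2 and 4.46 for MYH11, with array 2 next in both. DES, CNN1 and TAGLN were 4.26, 3.09 and 3.67 above the median of the others.

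Other contractile genes were high in the same 3 arrays. Of 40 further smooth muscle genes written in a list, 23 were measured. In day 13 PH 4 all 23 were above the median of the other arrays of the group, with a median of 3.05 over the list, in day 7 PH 5 it was 21 with a median of 1.27, and in day 5 PN 4 it was 23 with a median of 1.35. Over all probe sets the median was -0.00 in day 13 PH 4, 0.00 in day 7 PH 5 and 0.01 in day 5 PN 4. TPM2, a tropomyosin of the thin filament, was at 13.18 in day 13 PH 4, against 7.99 to 9.16 in the other arrays of that group. MYLK, the kinase that switches on smooth muscle myosin, was at 14.18 there, against 9.39 to 10.93. KCNMB1, the beta subunit of the calcium-activated potassium channel of smooth muscle, was at 10.18 in day 13 PH 4, against 2.44 to 2.88, at 7.98 in day 7 PH 5, against 2.39 to 2.67, and at 8.80 in day 5 PN 4, against 2.40 to 3.87. In none of the 3 genes did these arrays overlap with the rest of their group. Of the 23 genes 22 were above every other array of the group in day 13 PH 4, 19 in day 7 PH 5 and 18 in day 5 PN 4. In any group 1 array is always the highest, and the share of all probe sets above every other array was not counted.

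Medians of the marker lists of other cell types lay nearer to 0 in these arrays. The median of 10 vascular mural cell markers lay 0.04 above the other arrays in day 13 PH 4, at -0.02 in day 7 PH 5 and at 0.05 in day 5 PN 4. RGS5, a defining pericyte gene, was at 8.79 in day 13 PH 4 against 9.46 to 9.98, at 9.10 in day 7 PH 5 against 9.40 to 10.47, and at 8.70 in day 5 PN 4 against 8.90 to 10.16, hence below every other array of its group in all 3. Other mural markers went the opposite way: MCAM, an adhesion molecule of vessel walls, was at 7.08 in day 13 PH 4 against 5.83 to 6.30, at 6.66 in day 7 PH 5 against 5.76 to 6.02, and at 6.48 in day 5 PN 4 against 5.55 to 6.79. Of the 10 mural markers 2 were above and 2 below every other array of the group in day 13 PH 4, 3 above and 3 below in day 7 PH 5, and 3 above and 2 below in day 5 PN 4. The 13 endothelial markers had a median of -0.07 in day 13 PH 4, -0.27 in day 7 PH 5 and 0.03 in day 5 PN 4, and the 15 stromal fibroblast markers had 0.11, 0.04 and 0.09 in these arrays. The 13 leukocyte markers had -0.12, 0.03 and -0.05, and the 14 genes of myometrial signalling 0.22, 0.07 and 0.09. Of the 14 signalling genes 7 were above and 0 below every other array of the group in day 13 PH 4. The counts were 6 above and 3 below in day 7 PH 5, and 6 above and 0 below in day 5 PN 4. The 13 epithelial markers had a median of -0.62 in day 13 PH 4, where 1 of 13 was above the median of the other arrays, and of -0.07 in day 7 PH 5 and -0.06 in day 5 PN 4. Of the 13, 9 were below and 0 above every other array in day 13 PH 4. In day 7 PH 5 and in day 5 PN 4, 4 were below and 2 above. CDH1, the E-cadherin of epithelial junctions, was at 8.26 in day 13 PH 4, against 9.64 to 9.95. Among 16 striated muscle markers the list median was 0.01 in day 13 PH 4, 0.00 in day 7 PH 5 and 0.02 in day 5 PN 4, but single genes were far higher. ACTC1, the cardiac actin, was at 6.20 in day 13 PH 4 against 3.06 to 3.41, at 8.15 in day 7 PH 5 against 2.93 to 3.31, and at 4.56 in day 5 PN 4 against 3.09 to 3.68. CKM, the muscle creatine kinase, was at 10.61 in day 13 PH 4 against 7.05 to 9.19, at 10.10 in day 7 PH 5 against 8.08 to 9.48, and at 10.28 in day 5 PN 4 against 8.02 to 8.80. ACTA1, the skeletal actin, was also above every other array of the group in all 3. In all, 5 of the 16 were above every other array in day 13 PH 4, 4 in day 7 PH 5 and 4 in day 5 PN 4. Of the 5 arrays of a group 1 is always the highest, so such counts, in any list, arise without a shift as well. The share over all probe sets was not counted, so these counts do not show how far a list differs from other probe sets. Most striated muscle, leukocyte and myometrial signalling markers averaged below the 5.04 of the median probe set, as did several vascular mural and endothelial markers. At such levels a list median near 0 says little. The part of other muscle, vessel or stromal cells in the 3 arrays was not tested.

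The reach of the difference over the array was counted as probe sets at least 1 above or below every other array of the group. In day 13 PH 4 there were 606 above and 277 below, in day 7 PH 5 219 above and 119 below, and in day 5 PN 4 204 above and 120 below. Chosen after their values were seen, the genes farthest above the median of the others included RSPO3 and RSPO1, secreted R-spondins that amplify Wnt signalling: RSPO3 was 6.32 above in day 13 PH 4, 5.18 in day 7 PH 5 and 5.10 in day 5 PN 4, and RSPO1 was 5.50, 4.54 and 5.41 above. KCNE4, an accessory subunit of potassium channels, was 4.83 above in day 7 PH 5 and 5.13 above in day 5 PN 4.

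**Figure D2:**
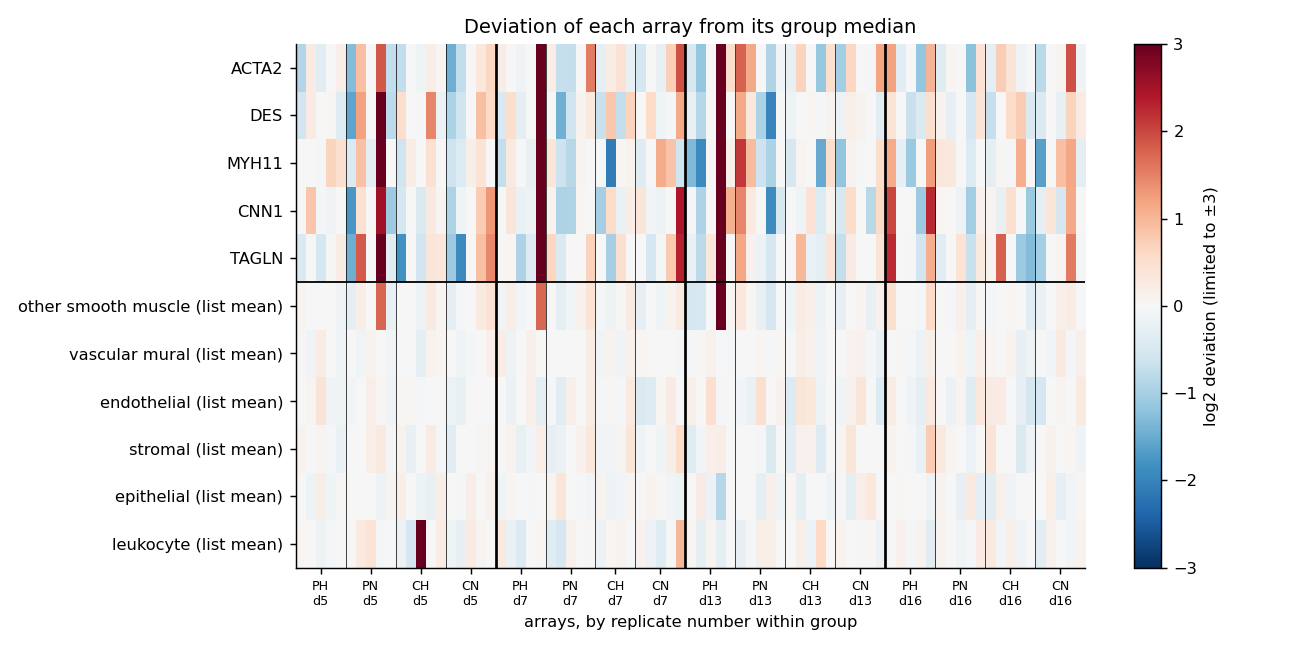
Deviation of each array from the median of its group on the log2 scale (colour, limited to ±3), for the 5 smooth muscle genes and for the mean of 6 gene lists, with arrays in columns by day, group and replicate number. Day 5 PN 4, day 7 PH 5 and day 13 PH 4 are red in all 5 genes and in the other smooth muscle list, and pale in the vascular mural, endothelial and stromal lists.

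Calls of the 5 genes below are given over all 79 arrays and, where they change, over the other 76. Pair correlations are given over 76 arrays, and counts of the gene lists over 79 unless stated otherwise. Leaving arrays out by their muscle score narrows the spread of these 5 genes by construction, so the values over 76 arrays show what rests on the 3 arrays and are no independent test.

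ACTA2 was highest on day 5 and lowest in pregnant heifers on day 16. On day 5 it averaged 11.61 ± 0.46 in PH, 12.21 ± 1.27 in PN, 11.12 ± 0.36 in CH and 11.46 ± 0.85 in CN (SD, n = 5 each). On day 7 the means were 11.11 ± 1.55 in PH, 10.24 ± 0.92 in PN, 9.91 ± 0.36 in CH (n = 4) and 10.49 ± 0.97 in CN. Without the arrays that stand apart, PN on day 5 averaged 11.78 ± 0.95 and PH on day 7 10.42 ± 0.14 (n = 4 each). The 4 groups of day 5 took the first 4 places among the 16 groups, with all arrays and without those 3. On day 13 ACTA2 averaged 10.44 ± 2.29 in PH (9.46 ± 0.73 without PH 4), 10.08 ± 1.07 in PN, 8.84 ± 0.71 in CH and 9.34 ± 0.82 in CN. On day 16 it averaged 8.74 ± 0.97 in PH, 8.69 ± 0.63 in PN, 10.46 ± 0.41 in CH and 9.62 ± 1.02 in CN. The 2 pregnant groups of day 16 were the lowest 2 of the 16.

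MYH11, the motor, showed no such order by day. Its means on day 5 were 7.75 ± 0.33 in PH, 9.21 ± 1.98 in PN, 7.51 ± 0.39 in CH and 8.31 ± 0.42 in CN. On day 7 they were 8.77 ± 1.92 in PH, 7.83 ± 0.50 in PN, 7.27 ± 1.07 in CH and 7.73 ± 0.75 in CN. The 3 groups that hold an array apart were the 3 highest of the 16, and without those arrays PN on day 5 averaged 8.35 ± 0.60, PH on day 7 7.93 ± 0.41 and PH on day 13 7.64 ± 1.01. On day 13 MYH11 averaged 8.91 ± 2.97 in PH, 8.45 ± 1.25 in PN, 7.45 ± 0.78 in CH and 7.79 ± 0.63 in CN. On day 16 it averaged 7.41 ± 0.99 in PH, 7.47 ± 0.30 in PN, 8.27 ± 0.54 in CH and 7.41 ± 1.10 in CN. Over 76 arrays the groups of every day were interleaved, between 8.45 in PN on day 13 and 7.27 in CH on day 7.

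CNN1, which binds actin and calmodulin, followed the order of ACTA2. On day 5 it averaged 8.38 ± 0.39 in PH, 8.68 ± 1.65 in PN, 7.99 ± 0.34 in CH and 7.87 ± 0.86 in CN. On day 7 it averaged 7.76 ± 1.88 in PH, 6.81 ± 0.53 in PN, 6.94 ± 0.66 in CH and 7.43 ± 1.09 in CN. The 4 groups of day 5 again came first. On day 13 the means were 7.39 ± 2.86 in PH (6.15 ± 0.82 without PH 4), 6.69 ± 1.22 in PN, 5.93 ± 0.31 in CH and 5.90 ± 0.64 in CN. On day 16 they were 5.57 ± 1.44 in PH, 5.62 ± 0.47 in PN, 7.00 ± 0.59 in CH and 6.36 ± 0.65 in CN, so that the pregnant groups of day 16 were again the lowest 2.

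TAGLN, another actin-binding protein, lay between these patterns. Its means on day 5 were 9.21 ± 0.32 in PH, 9.85 ± 1.96 in PN, 8.67 ± 0.91 in CH and 9.01 ± 1.38 in CN, and on day 7 9.16 ± 1.74 in PH, 7.95 ± 0.48 in PN, 8.06 ± 0.62 in CH and 8.38 ± 1.10 in CN. On day 13 they were 9.57 ± 2.16 in PH (8.62 ± 0.46 without PH 4), 8.79 ± 0.63 in PN, 8.16 ± 0.53 in CH and 8.48 ± 0.42 in CN, and on day 16 7.90 ± 1.12 in PH, 8.01 ± 0.45 in PN, 8.43 ± 1.23 in CH and 8.62 ± 0.93 in CN. DES, the intermediate filament gene, had group means over 76 arrays from 7.35 in CN on day 5 to 5.98 in CH on day 7. With all arrays DES averaged 7.20 ± 0.33 in PH, 8.12 ± 2.12 in PN, 6.89 ± 0.68 in CH and 7.35 ± 0.77 in CN on day 5, and 7.41 ± 1.96 in PH, 6.53 ± 0.70 in PN, 5.98 ± 0.82 in CH and 6.66 ± 0.54 in CN on day 7. On day 13 DES averaged 7.72 ± 2.54 in PH, 6.73 ± 1.20 in PN, 6.15 ± 0.10 in CH and 6.89 ± 0.20 in CN, and on day 16 6.91 ± 0.51 in PH, 6.25 ± 0.34 in PN, 7.04 ± 0.62 in CH and 6.57 ± 0.42 in CN. For each of the 5 genes, none of the 15 steps between neighbours in the order of group means exceeded the pooled SD within groups. That held with and without the arrays that stand apart. Sorting 16 means makes such steps small whatever the group effects, so the steps do not test differences among groups.

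**Figure D3:**
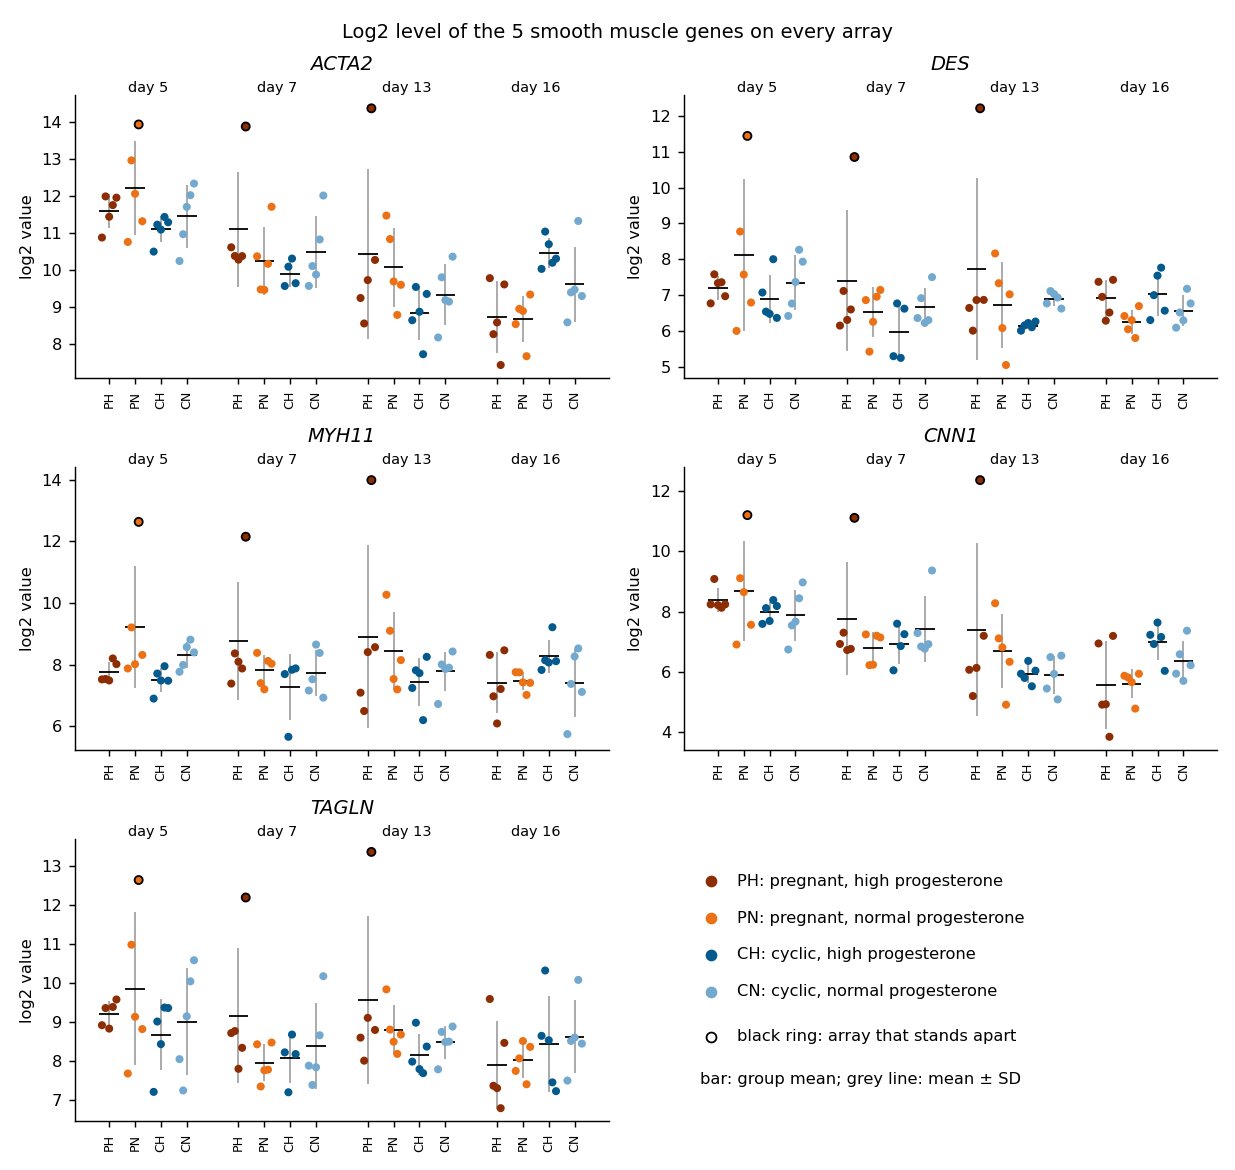
Log2 level of the 5 smooth muscle genes on each array, by day and group, with the group mean as a bar and mean ± SD as a grey line. ACTA2 and CNN1 are highest on day 5, and the 3 ringed arrays lie at the top of all 5 panels.

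The 5 genes varied more within groups than nearly all other probe sets. The pooled SD within groups was 1.04 for ACTA2, 1.23 for MYH11, 1.19 for CNN1, 1.15 for TAGLN and 1.12 for DES, against a median of 0.262 over all probe sets. Over 76 arrays it was 0.771, 0.749, 0.782, 0.855 and 0.642 in the same order of genes, against a median of 0.259, which still put DES at the 94.8th percentile of probe sets and TAGLN at the 98.3rd. The groups accounted for 55.2% of the sum of squares of ACTA2 and 44.4% of that of CNN1, but for 23.6% of TAGLN, 23.0% of DES and 22.2% of MYH11, where the median probe set had 33.0%. Over 76 arrays the shares were 66.9% for ACTA2 and 61.6% for CNN1, and 30.3% for DES, 23.2% for MYH11 and 21.7% for TAGLN, beside a median of 34.2%.

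A moderated F test in limma asked whether a gene differed at all among the 16 groups, and 50.8% of all probe sets passed it at a Benjamini-Hochberg adjusted p under 0.05. Among the 5 genes 2 passed, ACTA2 (adjusted p = 4.62e-06) and CNN1 (adjusted p = 0.000869), a share near that of all probe sets. TAGLN had an adjusted p of 0.313, DES of 0.340 and MYH11 of 0.379. Over 76 arrays the same 2 genes passed, beside 50.9% of all probe sets, with 6.12e-09 for ACTA2, 2.63e-07 for CNN1, 0.103 for DES, 0.376 for MYH11 and 0.447 for TAGLN.

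From array to array within groups the 5 genes moved together. Since 3 arrays form a cluster of their own, correlations are given over the other 76, as deviations from group means, for all 10 pairs of genes. Pearson's r lay between 0.439 for MYH11 with CNN1 and 0.806 for ACTA2 with CNN1, with a median of 0.628, and Spearman's rho between 0.426 and 0.831. Every pair passed a two-sided test of 100000 permutations within groups, with a highest adjusted p of 0.00205 over the 10 pairs, and without the 2 arrays farthest from the median r still lay between 0.387 and 0.785. MYH11 was the gene least tied to the others, at 0.456 with DES, 0.497 with TAGLN and 0.603 with ACTA2. The 2 values of a pair come from the same array and share its RNA and its scaling. With all 79 arrays, 1 array was the highest of its group in all 5 genes in 6 of the 16 groups, and the lowest in all 5 in 4.

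Other genes were then ranked by how closely they followed the muscle score within groups, over 9150 genes and all 79 arrays. TPM2 was nearest, with r = 0.959 (0.882 over 76 arrays), followed by TPM1, another tropomyosin, with 0.923 (0.758), FLNA, the actin cross-linker filamin A, with 0.908 (0.792), and MYLK with 0.902 (0.796). CSRP1, a LIM protein of the actin cytoskeleton, had 0.875 (0.695), FERMT2, the integrin activator kindlin 2, 0.847 (0.630), and TGFB1I1, a LIM protein of focal adhesions, 0.834 (0.604). PDLIM3, a PDZ and LIM protein of muscle, had 0.851, RSPO3 0.850 and KCNMB1 0.843, and these 3 fell most without the arrays that stand apart, to 0.468, 0.491 and 0.415. Their means over the arrays were low, at 2.46, 3.27 and 2.90, where the median probe set averaged 5.04. The part of low signal in this fall was not tested. Of these 10 genes 7 were in the list of other smooth muscle genes. At the opposite end were SHTN1, a cytoskeletal adaptor first described in neurons, with -0.600 (-0.501 over 76 arrays), FTL, the ferritin light chain, with -0.589 (-0.339), RNF183, a ubiquitin ligase, with -0.585 (-0.217), PLAT, the tissue plasminogen activator, with -0.577 (-0.171), and COQ7, an enzyme of ubiquinone synthesis, with -0.577 (-0.369). The ranking is a description over arrays that share their RNA and scaling with the score.

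The slope of each probe set on the muscle score within groups was fitted in limma, without the 5 genes that make the score. It passed the threshold for 1455 of 24011 probe sets, 6.06%, of which 1001 were positive (4.17%) and 454 negative (1.89%). The count was 667 without day 13 PH 4 and 750, or 3.12%, without the 3 arrays (2.16% positive and 0.962% negative). Of the 23 other smooth muscle genes 20 had a positive slope and 0 a negative one, with a median of 0.44 log2 per unit of score against -0.00 over all probe sets, and 13 over 76 arrays, with a median of 0.26. KCNMB1 had a slope of 1.03 ± 0.08 (SE), PDLIM3 of 0.86 ± 0.07, TPM2 of 0.81 ± 0.03 and PRUNE2, a scaffold protein abundant in smooth muscle and neurons, of 0.77 ± 0.08. Over 76 arrays TPM2 kept 0.76 ± 0.05, while KCNMB1 and PDLIM3, with the low means given above, came to 0.26 ± 0.07 and 0.21 ± 0.05. LDB3, ITGA7 and KCNMA1 were the 3 of 23 that did not pass, with slopes of 0.01, 0.15 and 0.12.

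Among the other lists the epithelial, vascular mural, endothelial and leukocyte markers had at most 1 slope past the threshold each over 79 arrays, while the stromal, striated muscle and myometrial signalling lists had 4 or 5, beside the 6.06% of all probe sets. Among 13 epithelial markers 0 were positive and 1 was negative, CDH1 at -0.15 ± 0.04. Over 76 arrays CDH1 did not pass (-0.11 ± 0.06, limma adjusted p = 0.458). EPCAM had -0.06 ± 0.02 (adjusted p = 0.0764 in limma, and 0.0353 over 76 arrays). Among 10 vascular mural markers 1 was positive, MCAM at 0.22 ± 0.04, and RGS5 had -0.14 ± 0.06. Among 13 endothelial markers and 13 leukocyte markers 0 passed in either direction with limma, with 1 endothelial marker, PECAM1, past it over 76 arrays (0.28 ± 0.08). Among 15 stromal fibroblast markers 4 were positive. They were SFRP2, a secreted Wnt modulator, at 0.34 ± 0.06, COL1A1, a collagen, at 0.23 ± 0.05, HOXA10 at 0.15 ± 0.05 and COL6A1 at 0.13 ± 0.03. Over 76 arrays 5 were positive, COL1A1, COL6A1, COL1A2, FBLN1 and VIM. SFRP2 (limma adjusted p = 0.480) and HOXA10 (adjusted p = 0.143) did not pass there. Among 14 genes of myometrial signalling 5 were positive, among them CXCL12, a chemokine, at 0.55 ± 0.09 and CNR1, a cannabinoid receptor, at 0.28 ± 0.04, and among 16 striated muscle markers 4, led by ACTC1 at 0.52 ± 0.07 and CKM at 0.35 ± 0.07. For both of these lists 0 passed over 76 arrays. OXTR, the oxytocin receptor, had a slope of 0.40 ± 0.15 that did not pass (adjusted p = 0.106).

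**Figure D4:**
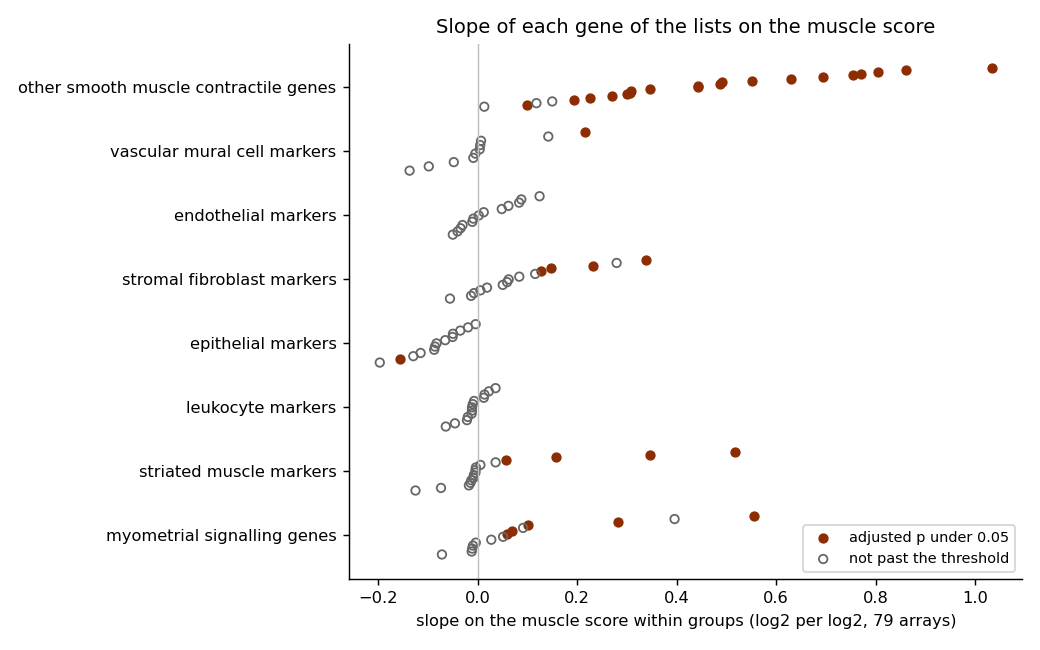
Slope of each gene of 8 lists on the muscle score within groups (log2 per log2, 79 arrays), with filled points past an adjusted p of 0.05 in limma. In the list of other smooth muscle genes 20 of 23 points are filled, and no other list has more than 5.

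Between successive days the 5 genes differed most on day 7 against day 5, with a median difference of -0.80, beside 0.23 on day 13 against day 7 and -0.34 on day 16 against day 13. ACTA2 lay between 9.47 and 13.88 on day 7, with a median of 10.29 over 19 arrays, against 10.25 to 13.94 on day 5, with a median of 11.44 over 20 arrays. The ranges overlapped, and the mean of the 4 groups was 10.44 on day 7 and 11.60 on day 5, a difference of -1.16 ± 0.33 (SE, limma adjusted p = 0.00651). It was the only one of the 5 genes to pass, in a comparison in which 20.7% of all probe sets passed and 11.8% were lower. At an unadjusted p under 0.05 there were 4 of the 5, beside 30.2% of all probe sets. In bulk tissue fewer cells of a type and less RNA per cell cannot be told apart, here or in any comparison below.

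CNN1, TAGLN and DES were lower on day 7 too, and their call depended on the arrays that stand apart. CNN1 lay between 6.05 and 11.10 on day 7, with a median of 6.93, against 6.74 to 11.19 on day 5, with a median of 8.20. Its difference was -0.99 ± 0.38 (adjusted p = 0.0513), and -1.04 ± 0.26 over 76 arrays (adjusted p = 0.00141). TAGLN differed by -0.80 ± 0.36 (adjusted p = 0.120, and 0.0284 over 76 arrays) and DES by -0.75 ± 0.35 (adjusted p = 0.139, and 0.00541). Without day 7 PH 5 alone both passed, with -0.98 (adjusted p = 0.0325) for TAGLN and -0.96 (adjusted p = 0.0262) for DES, and so did CNN1, with -1.20 (adjusted p = 0.00897). MYH11 differed by -0.29 ± 0.39 (adjusted p = 0.652, and 0.468 over 76 arrays). Over 76 arrays 4 of the 5 genes passed, beside 21.1% of all probe sets.

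The other smooth muscle genes fell in the same comparison more often than they rose. Of the 23 measured 10 were lower on day 7 and 0 higher, with a median of -0.38 against 0.01 over all probe sets, and over 76 arrays 14 were lower. ITGA7, a laminin-binding integrin of muscle, differed by -0.87 ± 0.23 (limma adjusted p = 0.00375), HSPB6, a small heat shock protein, by -0.82 ± 0.21 (adjusted p = 0.00281), TPM2 by -0.78 ± 0.28 (adjusted p = 0.0390) and FLNA by -0.74 ± 0.21 (adjusted p = 0.00522). Lists of other cell types moved as well: 8 of 15 stromal fibroblast markers were lower, 4 of 13 leukocyte markers were lower, 4 of 13 epithelial markers were higher and 3 lower, and 2 of 10 vascular mural markers were higher and 1 lower. Of 13 endothelial markers 0 passed. The part of these lists in the difference of ACTA2 was not tested.

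Between day 7 and day 13 none of the 5 genes had a called difference over 79 arrays. ACTA2 averaged 9.68 over the groups of day 13 and 10.44 over those of day 7, a difference of -0.76 ± 0.33 (limma adjusted p = 0.0638), and CNN1 averaged 6.48 on day 13 and 7.24 on day 7, a difference of -0.76 ± 0.38 (adjusted p = 0.116). TAGLN differed by 0.36 ± 0.36, MYH11 by 0.25 ± 0.39 and DES by 0.23 ± 0.35. These last 3 differences were no larger than about their standard errors. In this comparison 36.9% of all probe sets passed, and 2 of the 5 genes had an unadjusted p under 0.05, beside 42.4% of all probe sets. Over 76 arrays ACTA2 (-0.83 ± 0.25, adjusted p = 0.00576) and CNN1 (-0.86 ± 0.26, adjusted p = 0.00512) passed, beside 36% of all probe sets, and without day 13 PH 4 alone they did so with -1.01 (adjusted p = 0.00318) and -1.07 (adjusted p = 0.00435). ACTA2 also passed when any of 3 other arrays was left out, at -0.83 without day 13 CN 5, -0.85 without day 13 PN 1 and -0.82 without day 7 CN 1 (adjusted p = 0.0455, 0.0371 and 0.0483).

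Of the 23 other smooth muscle genes 4 were lower on day 13 and 2 higher. ITGA7 differed by -0.96 ± 0.23 (limma adjusted p = 0.000601), MYLK by -0.75 ± 0.24 (adjusted p = 0.00738) and PDLIM7 by -0.46 ± 0.17 (adjusted p = 0.0273). PLN, the calcium pump regulator phospholamban, differed by 0.76 ± 0.30 (adjusted p = 0.0373) and CALD1, the thin filament protein caldesmon, by 0.42 ± 0.17 (adjusted p = 0.0379). Of 13 endothelial markers 11 were higher on day 13, with a median of 0.43, beside 0 of 10 vascular mural markers in either direction. Their part in the differences of the smooth muscle genes was not tested.

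From day 13 to day 16 none of the 5 genes passed in limma, with or without the 3 arrays, while 8.65% of all probe sets did (7.6% over 76 arrays), and 0 of the 5 had an unadjusted p under 0.05. Over all arrays the differences ran from -0.51 ± 0.36 for TAGLN to -0.18 ± 0.35 for DES, and over 76 arrays from -0.27 ± 0.27 for TAGLN to 0.10 ± 0.20 for DES.

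Pregnancy was compared within each day, as the mean of PH and PN minus the mean of CH and CN. On day 16 ACTA2 was 9.79, 8.27, 8.59, 7.44 and 9.62 in PH and 8.55, 8.96, 8.90, 7.68 and 9.34 in PN, against 10.04, 11.05, 10.70, 10.20 and 10.32 in CH and 8.59, 9.40, 9.48, 11.33 and 9.31 in CN. Every CH array was above every pregnant array, whereas the CN arrays overlapped with them. The difference was -1.33 ± 0.46 and did not pass over 79 arrays (limma adjusted p = 0.107). It passed over 76 arrays (adjusted p = 0.0121, beside 3.36% of all probe sets) and without day 13 PH 4 alone (adjusted p = 0.0405), although none of those arrays is of day 16, since all groups share 1 estimate of spread for each gene.

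CNN1 on day 16 was 6.94, 4.92, 4.93, 3.85 and 7.19 in PH and 5.87, 5.82, 5.66, 4.79 and 5.94 in PN, against 7.23, 6.92, 7.63, 7.16 and 6.04 in CH and 5.94, 6.58, 5.71, 7.37 and 6.22 in CN. The groups overlapped, and the difference was -1.09 ± 0.53 (adjusted p = 0.342, and 0.0659 over 76 arrays). TAGLN differed by -0.57 ± 0.51, MYH11 by -0.40 ± 0.54 and DES by -0.22 ± 0.49. None of the 5 genes passed in limma over 79 arrays, in a comparison in which 3.16% of all probe sets did, and 2 had an unadjusted p under 0.05, beside 13.5% of all probe sets. KCNMA1, the pore of the calcium-activated potassium channel, was the 1 of 23 other smooth muscle genes that was lower, by -0.91 ± 0.19 (adjusted p = 0.00108). Over 76 arrays 2 of the 23 were lower and 1 was higher. Of 13 endothelial markers 3 were lower, with a median of -0.31, and their list mean ran from 5.56 to 6.14 in PH and 5.63 to 6.30 in PN, against 5.67 to 6.46 in CH and 5.71 to 6.51 in CN. Of 15 stromal markers 2 were lower and of 13 epithelial markers 1 was higher. Their part in the values of ACTA2 was not tested.

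On day 13 the 5 differences were above 0 with and without day 13 PH 4, and their size depended on that array. ACTA2 was 9.25, 8.56, 9.74, 14.38 and 10.28 in PH and 11.48, 10.84, 9.70, 8.79 and 9.61 in PN, against 8.65, 9.55, 8.88, 7.73 and 9.36 in CH and 8.19, 9.81, 9.20, 9.15 and 10.37 in CN. Pregnant and cyclic arrays overlapped, and the difference was 1.17 ± 0.46, and 0.68 ± 0.35 without day 13 PH 4. The same was seen in the other genes: MYH11 differed by 1.06 ± 0.54 and by 0.43 ± 0.34 without that array, CNN1 by 1.12 ± 0.53 and 0.50 ± 0.36, TAGLN by 0.87 ± 0.51 and 0.39 ± 0.39, and DES by 0.70 ± 0.49 and 0.14 ± 0.29. The values without that array come from the fit of 76 arrays. None passed in either fit, in a comparison in which 0% of all probe sets passed in limma. At an unadjusted p under 0.05 there were 2 of the 5, and 620 probe sets in all, or 2.58%.

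On days 5 and 7 pregnancy showed no called difference. On day 5 the 5 genes differed by 0.54 to 0.69 with all arrays, and by 0.12 to 0.41 over 76, and on day 7 by 0.10 to 0.80, and by -0.32 to 0.38 over 76. In limma 0 of the 5 passed, beside 0.0167% of all probe sets on day 5 and 0% on day 7, and 0 had an unadjusted p under 0.05 on either day.

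The change of the pregnancy difference between days 13 and 16 passed for ACTA2, at -2.50 ± 0.65 (limma adjusted p = 0.0329), and at -2.01 ± 0.49 over 76 arrays (adjusted p = 0.0193). It was the 1 of 5 genes to pass in both fits, where 0.974% of all probe sets passed over 79 arrays (0.0916% with a lower value) and 0.808% over 76, and 3 of the 5 had an unadjusted p under 0.05, beside 7.54% of all probe sets. CNN1 had -2.21 ± 0.74 (adjusted p = 0.221), MYH11 -1.46 ± 0.77 (adjusted p = 0.700), TAGLN -1.44 ± 0.72 (adjusted p = 0.660) and DES -0.92 ± 0.70 (adjusted p = 0.753). This value is made of the day 13 and day 16 differences above and is no separate evidence. The call of ACTA2 was lost in 11 of 79 omissions of 1 array. On day 13 those were CH 4 (-2.36, adjusted p = 0.0668), CN 1 (-2.36, 0.0685), CN 4 (-2.48, 0.0521), PH 4 (-2.01, 0.0736), PN 1 (-2.33, 0.0708) and PN 2 (-2.41, 0.0609). On day 16 they were CH 2 (-2.43, adjusted p = 0.0504), CN 4 (-2.29, 0.0768), PH 2 (-2.44, 0.0512), PH 4 (-2.34, 0.0776) and PN 4 (-2.38, 0.0652). It was also lost in a fit of days 13 and 16 alone, with the same difference of -2.50 and an adjusted p of 0.0983.

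High progesterone was compared within each day as the mean of PH and CH minus the mean of PN and CN. In limma 0 of the 5 genes passed on any day, with or without the 3 arrays, beside 0.908% of all probe sets on day 5, 4.7% on day 7, 0.441% on day 13 and 0.0958% on day 16. Over 76 arrays those shares were 0.966%, 3.65%, 0.725% and 0.0958%. At an unadjusted p under 0.05 there was 1 gene on day 5, beside 10.9% of all probe sets, and 0 on the other days, beside 17.6% on day 7, 6.81% on day 13 and 10.9% on day 16. That gene was MYH11, at 7.52, 7.54, 7.49, 8.20 and 8.02 in PH and 6.90, 7.71, 7.49, 7.95 and 7.48 in CH on day 5, against 7.88, 9.21, 8.02, 12.63 and 8.32 in PN and 7.77, 7.99, 8.57, 8.81 and 8.40 in CN. Its difference was -1.13 ± 0.54 (adjusted p = 0.430), and -0.70 ± 0.34 without PN 4 (adjusted p = 0.465). On day 13 the median difference of the 5 genes was 0.12 with all arrays and -0.44 over 76. On day 7 the medians were 0.23 and -0.19, with TAGLN above 0 in both fits (0.44 and 0.06).

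The interaction, the progesterone difference in pregnant heifers minus that in cyclic heifers, passed for 0 of the 5 genes on each of the 4 days in limma, and 0 had an unadjusted p under 0.05. Of all probe sets 0% passed on day 5, 0.025% on day 7, 0.0208% on day 13 and 0.87% on day 16, and over 76 arrays, where again 0 of the 5 genes passed, 0% on day 5, 0.00416% on day 7, 0.025% on day 13 and 1.05% on day 16. On day 7 the 5 genes had a median of 1.45 and a median SE of 1.05, against 0.69 and 0.72 over 76 arrays, so the differences were of the size of their standard errors.

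**Figure D5:**
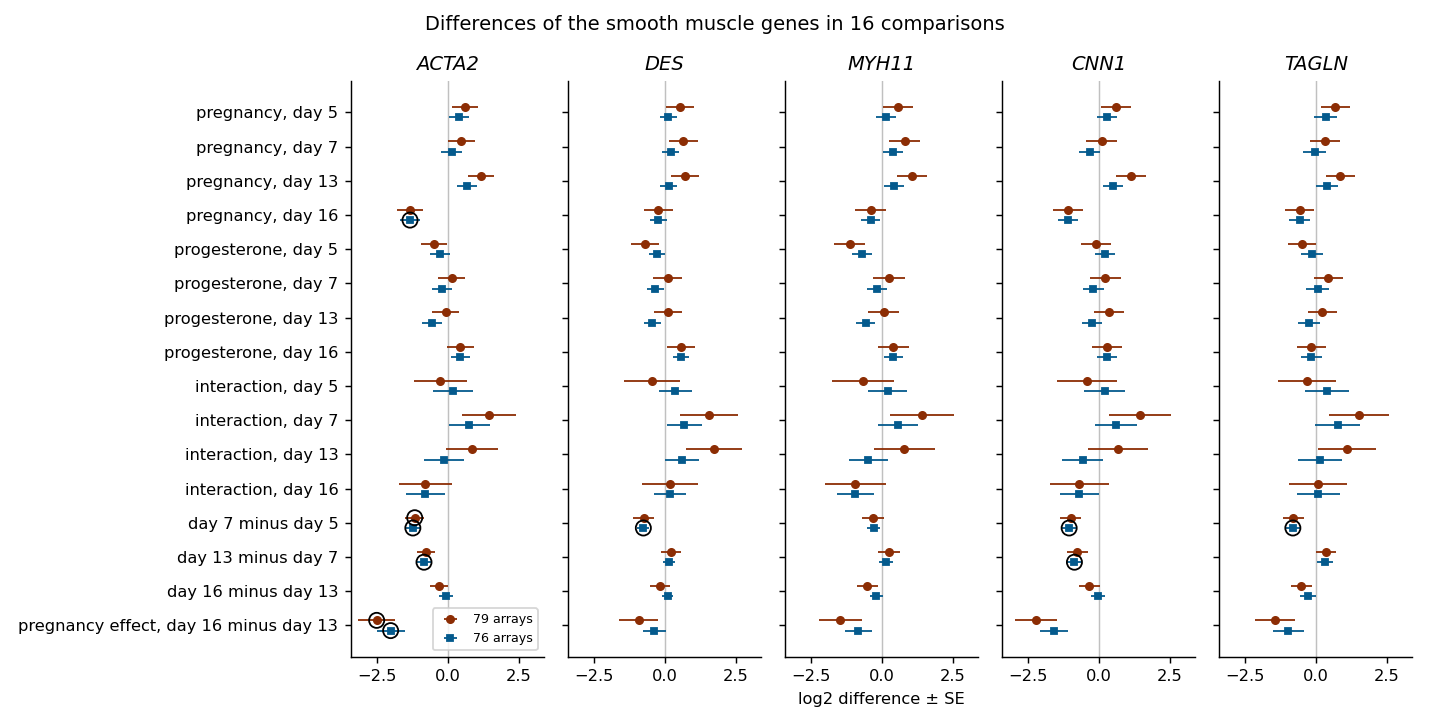
Difference of each smooth muscle gene in 16 comparisons (log2 difference ± SE), over 79 arrays (circles) and over the 76 without those that stand apart (squares), with black rings where the adjusted p in limma is under 0.05. Most error bars shrink over 76 arrays, and rings appear for ACTA2 in 4 comparisons and for the other genes in the day comparisons only.

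Each gene was finally read relative to the other 4, by adding their mean as a covariate to the fit of all probe sets. The slopes were 1.04 ± 0.06 for CNN1, 0.97 ± 0.08 for MYH11, 0.93 ± 0.07 for TAGLN, 0.93 ± 0.06 for DES and 0.89 ± 0.05 for ACTA2. With this covariate a difference among the 16 groups passed for ACTA2 (limma F test adjusted p = 5.93e-11), CNN1 (adjusted p = 1.40e-06), DES (adjusted p = 0.0139) and MYH11 (adjusted p = 0.0175), and not for TAGLN (adjusted p = 0.224). DES and MYH11 had not passed without the covariate, so their calls were gained with it. Over 76 arrays it passed for ACTA2 and CNN1, and not for DES (adjusted p = 0.0878) or MYH11 (adjusted p = 0.266). Of all probe sets 50.1% passed in the fit for ACTA2, 49.9% in that for CNN1, 49.4% for DES, 49.2% for MYH11 and 49.5% for TAGLN. The 5 relative values are tied together, since each gene is part of the covariate of the other 4.

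Relative to the others, ACTA2 and CNN1 were lower on day 13 than on day 7, and TAGLN and DES were higher. On day 13 minus day 7 ACTA2 differed by -0.78 ± 0.13 (limma adjusted p = 7.56e-07), CNN1 by -0.78 ± 0.15 (adjusted p = 1.81e-05), TAGLN by 0.60 ± 0.18 (adjusted p = 0.00567) and DES by 0.44 ± 0.16 (adjusted p = 0.0272). MYH11 differed by 0.47 ± 0.21 (adjusted p = 0.0774). Thus 4 of 5 genes passed, where 37.3% or 37.4% of all probe sets did in these fits, and over 76 arrays DES did not (0.37, adjusted p = 0.0576). Between day 5 and day 7 ACTA2 alone passed, at -0.54 ± 0.13 (adjusted p = 0.00192, beside 18.8% of all probe sets), and DES stood at 0.01 ± 0.17, where it had differed by -0.75 without the covariate. Pregnancy on day 16 gave -0.82 ± 0.18 for ACTA2 (adjusted p = 0.00223, beside 2.74% of all probe sets) and no call for the other 4. The change of the pregnancy difference between days 13 and 16 gave -1.17 ± 0.26 for ACTA2 (adjusted p = 0.00928, beside 0.704%), and -0.98 over 76 arrays (adjusted p = 0.0348).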

How the data were processed

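The files hold the authors' deposited log2 expression values, 1 per probe set and array. The tools named are limma, GCRMA and RMA, per the submitters' processing notes. Which of RMA and GCRMA made the deposited values is not given in the sources used here, so how the background of dim probe sets was removed is unknown.

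From 24128 probe sets 112 controls were left out, and no filter on level was used. A single symbol was annotated to 13292 probe sets, more than 1 to 86 and none to 10638. Gene identifiers of 13263 were found in the RefSeq gene table, which changed 0 symbols. Where a listed gene had several probe sets, the brightest on average was used. No positions or sequences are given, since the files name no genome build.

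Means of 16 groups were fitted with limma 3.58.1 (statmod 1.5.0, R 4.3.3) over 79 arrays, with empirical Bayes moderation (63 residual and 1.49 prior degrees of freedom). P-values were adjusted by Benjamini-Hochberg over all probe sets of a comparison, with a threshold of 0.05. The spread is that between arrays, so the number of arrays limits the precision. The muscle score and the 10 pairs of genes rest on 5 genes and not on the 6 written, since ACTG2 had no probe set. Lists were of smooth muscle, vascular mural, endothelial, stromal fibroblast, epithelial, leukocyte, striated muscle and myometrial signalling genes. Named genes were the members, up to 4 genes past the threshold and 2 defining markers of a list, and the 10 most and 5 least like genes. The genes farthest above the others in the 3 arrays are marked as chosen after their values were seen. Some further genes were named outside this rule, among them KRT8, SPINT1, POSTN, CALD1 and OXTR. The members and lists were chosen with earlier results of these data known. Alternatives were other scalings, moderation, array weights, a replicate block, fewer groups, a level filter, the other members as covariate, the omission of each array and of those that stand apart, and, added after the data were seen, the muscle score as a covariate. The fits were tested on simulated data. The highest correlation of any 2 arrays was 0.993, and no 2 were identical. Python 3.11.15, pandas 2.3.3, scipy 1.17.1 and matplotlib 3.10.9 served for the rest.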

Additional observations from a re-analysis of the deposited data

Results flagged for a closer look

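In 15 of 80 combinations of gene and group, 1 array lay far from the others of its group by Dixon's criterion, a gap to the nearest array that is large against the range of the group. Chance flags about 1 in 20 groups, and the genes are correlated, so an array can be flagged several times. Of the 15, 10 belong to the 3 arrays that stand apart. Those arrays were chosen by the mean of these same genes, so their flags follow in part from the choice. Day 7 PH 5 was flagged in ACTA2 (13.88), DES (10.85), MYH11 (12.15), CNN1 (11.10) and TAGLN (12.19). Day 13 PH 4 was flagged in DES (12.21), MYH11 (13.98), CNN1 (12.35) and TAGLN (13.36), and day 5 PN 4 in MYH11 (12.63).

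The other 5 were single genes in single arrays. MYH11 was low in day 7 CH 3, at 5.66 against 7.70 to 7.88 in the other 3 arrays, which is the array with the narrowest distribution of values (SD 2.60). MYH11 was high in day 16 CH 4, at 9.21 against 7.83 to 8.14. CNN1 was high in day 5 PH 2, at 9.08 against 8.12 to 8.24, and in day 7 CN 5, at 9.36 against 6.77 to 7.29, and low in day 16 PN 4, at 4.79 against 5.66 to 5.94. In day 7 CN 5 ACTA2 (12.02), TAGLN (10.17) and DES (7.50) were the highest of the group as well and MYH11 (6.93) the lowest.

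The pregnancy difference of ACTA2 changed between days 13 and 16 by -2.50 (limma adjusted p = 0.0329), from the test of that change itself. The call was lost in 11 of 79 omissions of 1 array and in a fit of days 13 and 16 alone (-2.50, adjusted p = 0.0983).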

How the results depend on the processing

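The number of the 5 genes past the threshold was recomputed for each comparison. For day 7 minus day 5 it was 1, and 4 with array weights, 4 without the arrays that stand apart, 2 in a fit of the days concerned, 2 among probe sets above the median level and 0 in CN heifers alone. For day 13 minus day 7 it was 0, and 1 with array weights, 1 above the median level, 2 without the arrays that stand apart and 4 with the other genes as covariate. For pregnancy on day 16 it was 0, and 1 with array weights, with that covariate and without the arrays that stand apart. For the change of the pregnancy difference it was 1, and 0 in a fit of the days concerned (ACTA2 -2.50, adjusted p = 0.0983). For any difference among groups it was 2, and 4 with the covariate. DES turned its sign in day 7 minus day 5 with the covariate (0.0057, adjusted p = 0.988, against -0.75). The causes were not tested.

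Slopes on the muscle score passed for 1455 probe sets, for 845 with array weights, 805 with a replicate block and 750 without the arrays that stand apart. The median correlation of pairs of genes was 0.821 over all arrays, 0.628 without those that stand apart and 0.709 without the 2 arrays farthest from the median. By day it was 0.875 on day 5, 0.782 on day 7, 0.942 on day 13 and 0.660 on day 16. Days 5, 7 and 13 each hold an array that stands apart and day 16 holds none, so these values do not compare the days.

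With each array left out in turn the counts ran from 1 to 4 for day 7 minus day 5, 0 to 2 for day 13 minus day 7, 0 to 1 for pregnancy on day 16 and for the change of the pregnancy difference, and 667 to 1535 for slopes; the count for any difference stayed at 2, those of the other 12 comparisons at 0, and the median correlation ran from 0.739 to 0.841. CNN1 on day 7 minus day 5 passed in 13 of 79 omissions, with adjusted p from 0.00897 to 0.103 over all of them.

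Arrays with the same replicate number did not deviate together: mean correlations of their deviations were 0.0294, 0.0467, 0.0228 and -0.00919 on days 5, 7, 13 and 16, so they were not treated as pairs. The replicate block changed no call of the 5 genes. Each gene rests on 1 probe set. The pooled SD of each gene is shared by all comparisons, and the 3 arrays that stand apart raise it.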

Other observations

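The muscle score was also put as a covariate into the fit of all probe sets other than the 5 genes, an alternative chosen after the data were seen. For pregnancy on day 16, 608 probe sets passed with the score and 759 without it, and 585 were shared. For the change of the pregnancy difference between days 13 and 16, 140 passed with it and 233 without, and 133 were shared. For day 7 minus day 5 the counts were 4382 and 4961, with 4062 shared, and for progesterone on day 7 1219 and 1128, with 1109 shared. Counts also rose with the score for day 13 minus day 7 (8958 against 8857) and day 16 minus day 13 (2104 against 2078). On day 13 they rose for progesterone (116 against 106) and the interaction (6 against 5). Falls were seen for progesterone on day 5 (204 against 218) and day 16 (21 against 23), and for pregnancy on day 5 (0 against 4). The interaction fell on day 7 (1 against 6) and day 16 (202 against 209). Of the 759 probe sets called for pregnancy on day 16, 67 also had a called slope on the score, which is 8.83% of them and 4.60% of the 1455 with such a slope.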
